A study of Homo sapiens with 8 samples.

Results

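The metallothionein genes *MT1E*, *MT1F*, *MT1G*, *MT1M*, *MT1X* and *MT2A*, the zinc exporter gene *SLC30A1* and the gene of their zinc-sensing regulator, *MTF1*, were followed in a pair of NRF2-normal NSCLC lines exposed to diethyl maleate (DEM). These 8 genes were listed by name out of 57815 gene identifiers, and all 8 were found. RNA-seq was carried out on ABC1 and HCC4006, 2 established lung adenocarcinoma lines that carry mutations in neither *KEAP1* nor *NRF2*. In each line, cells received 100 μM DEM or the vehicle DMSO and were collected after 16 h. DEM is an electrophile that depletes glutathione and activates NRF2. Each of the 4 groups (ABC1 vehicle, ABC1 DEM, HCC4006 vehicle, HCC4006 DEM) held 2 libraries, biological duplicates numbered 0 and 1, which makes 8 libraries. One line stands for each background, so line and any other property of its culture cannot be told apart.

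Metallothioneins are small cysteine-rich proteins that bind zinc, copper and cadmium and buffer free zinc in the cytosol, and their thiols also react with oxidants and electrophiles. MTF1 is a zinc finger transcription factor that senses a rise of free zinc and binds metal response elements in the promoters of metallothionein genes and of *SLC30A1*. *SLC30A1* encodes ZnT1, the transporter that exports zinc across the plasma membrane, so metallothionein induction and zinc export are usually read as paired arms of one zinc response.

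The metallothionein genes lie in one cluster on chromosome 16 (GRCh37 coordinates, GENCODE annotation). *MT2A* spans chr16:56642496-56643409 on the plus strand and *MT1E* spans chr16:56659387-56661024 on the plus strand. *MT1M* (chr16:56666571-56667893), *MT1F* (chr16:56691643-56694610) and *MT1X* (chr16:56716382-56718108) follow on the plus strand. *MT1G* (chr16:56700642-56701977) is on the minus strand. *SLC30A1* (chr1:211744910-211752503) and *MTF1* (chr1:38275246-38325264) are both on the minus strand of chromosome 1. All 8 are annotated as protein-coding, and the values are gene-level sums over their transcripts.

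The promoter windows of 3 of these genes are printed because they carry the binding motif of MTF1 at very different densities, and because *MT2A* and *MT1X* moved one way with DEM in HCC4006 while *SLC30A1* moved the other. Whether the number of matches bears on the response to DEM was not tested. Each line gives the 250 bases before the start of the gene's canonical transcript, 5′ to 3′ on the gene's own strand, read from GRCh37. Capitals mark matches to the metal response element core, TGCACNC or TGCGCNC, on either strand (N is any base).
MT2A, chr16:56642246-56642495, plus strand: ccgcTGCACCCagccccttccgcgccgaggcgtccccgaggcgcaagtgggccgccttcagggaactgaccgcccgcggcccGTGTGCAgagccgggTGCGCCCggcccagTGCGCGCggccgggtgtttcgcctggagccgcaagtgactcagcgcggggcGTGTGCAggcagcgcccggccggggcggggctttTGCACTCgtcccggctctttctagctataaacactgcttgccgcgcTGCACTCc
MT1X, chr16:56716132-56716381, plus strand: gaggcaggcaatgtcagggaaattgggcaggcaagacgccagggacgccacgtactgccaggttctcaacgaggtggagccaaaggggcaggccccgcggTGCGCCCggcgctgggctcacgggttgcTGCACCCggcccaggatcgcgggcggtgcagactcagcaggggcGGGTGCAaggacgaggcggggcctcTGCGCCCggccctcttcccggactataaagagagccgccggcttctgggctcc
SLC30A1, chr1:211752504-211752753, minus strand: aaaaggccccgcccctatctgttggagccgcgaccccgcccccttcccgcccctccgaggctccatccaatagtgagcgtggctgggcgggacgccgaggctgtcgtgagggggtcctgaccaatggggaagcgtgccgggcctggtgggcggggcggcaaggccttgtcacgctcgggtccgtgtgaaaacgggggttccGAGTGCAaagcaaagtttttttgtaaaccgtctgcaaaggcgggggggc

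*MT2A* held 7 matches to this core, *MT1F* 6, *MT1X* 4, and *MT1E* and *MT1M* 3 each, whereas *SLC30A1* held 1 and *MTF1* held 0. Among the windows of 19862 protein-coding genes of the same length, 30.9% held at least 1 match, 2.19% at least 3 and 0.156% at least 5, so the 5 metallothionein windows examined belonged to a small share of windows and that of *SLC30A1* did not. *MT1M* and *MT1X* each had a match that began at position -78 and another at -53 from the start site, and *MT1E* had them at -77 and -52. The core of the antioxidant response element, TGACNNNGC on either strand, had 1 match each in the windows of *MT2A*, *MT1X* and *SLC30A1* and none in those of *MT1E*, *MT1F*, *MT1M* and *MTF1*, and 11.4% of all windows held at least 1. No match to one core overlapped a match to the other in these windows. The window of *MT1E* lies wholly and that of *MT1F* mostly within the annotated span of the gene, since other transcripts of these genes start further upstream. A match is a run of letters and not a measured binding site, and a window without one says only that these letters were not in it.

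**Figure D1:**
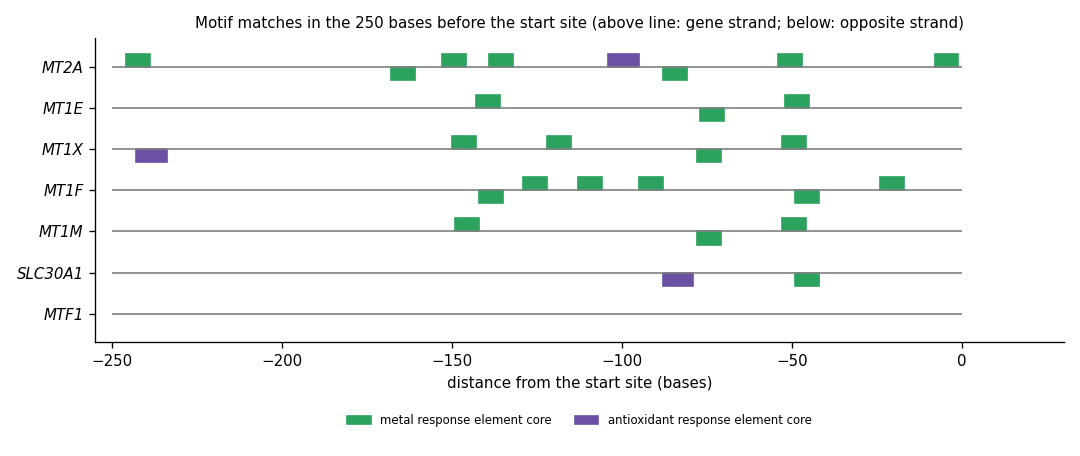
Matches to the metal response element core (green) and the antioxidant response element core (purple) in the 250 bases before the start site of 7 of the 8 genes, with distance from the start site in bases on the horizontal axis; blocks above a line are on the gene's strand and blocks below it on the opposite strand. The metallothionein windows hold 3 to 7 green blocks, *SLC30A1* holds 1 and *MTF1* none.

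Expression is given in FPKM, fragments per kilobase of transcript scaled to a common library size, as the authors deposited it, so that levels can be compared between genes per length. Sums of FPKM over a library differed by at most 1.18 times, 12515 to 13573 genes per library reached 1 FPKM, and the duplicates of a group correlated at r = 0.992 to 0.995 across genes. Depth per library is not known here. The authors give 1 mean of scaled read counts per gene over the libraries of a line (base mean). Its sum over genes was 13786938 in ABC1 and 13957320 in HCC4006. All 6 epithelial markers examined were expressed in both lines, but the lung lineage markers *NKX2-1* and *NAPSA* were at 42.4 to 47.1 and 12.9 to 16.0 FPKM in HCC4006 against 0.502 to 0.763 and 0.234 to 0.646 FPKM in ABC1, and the surfactant genes *SFTPB* and *SFTPC* were below 0.3 FPKM in every library. All 4 NRF2 targets used to check the treatment (*NQO1*, *HMOX1*, *GCLM*, *SRXN1*) rose with DEM in both lines, with a median log2 fold change of 2.13 in ABC1 and 2.42 in HCC4006. The call of *NQO1* in ABC1 was lost without any one library (limma Benjamini-Hochberg adjusted p = 0.0681 to 0.284), those of *GCLM* and *SRXN1* there without ABC1 vehicle replicate 0 (0.194 and 0.0722) and that of *GCLM* without vehicle replicate 1 (0.137), and with no minimum FPKM none of the 4 passed in ABC1 and *NQO1* did not in HCC4006 (0.0580).

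The lines differed far more in metallothionein level than either did with DEM. *MT2A*, the most abundant metallothionein in both lines, was at 11.0 and 11.3 FPKM in the vehicle libraries of ABC1 and at 646 and 631 FPKM in those of HCC4006. It ranked 109th among genes by FPKM in both HCC4006 vehicle libraries and 6748th and 6769th in those of ABC1. *MT1X* was at 1.12 and 0.966 FPKM in ABC1 vehicle and at 42.2 and 48.7 FPKM in HCC4006 vehicle. *MT1F* was at 0.236 and 0.238 FPKM in ABC1 vehicle against 7.17 and 10.9 FPKM in HCC4006 vehicle. For each of these genes every HCC4006 vehicle library lay above every ABC1 vehicle library. The share of all genes separated in this way was not counted, and limma called 36.8% of genes tested higher in HCC4006 vehicle, so separation alone sets none of them apart.

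*MT1E*, the metallothionein next to *MT2A* in level in HCC4006, was at 131 and 147 FPKM in its vehicle libraries and listed at 0 in all 4 ABC1 libraries. *MT1G* (2.66 and 2.80 FPKM in HCC4006 vehicle) and *MT1M* (0.483 and 0.770 FPKM) were likewise listed at 0 in all 4 ABC1 libraries. The authors' base mean of these 3 genes in ABC1 was also 0, against 630, 11.7 and 4.19 in HCC4006, so no read was assigned to them there and no fold is given. The low ABC1 values of *MT1X* and *MT1F* rest on a base mean of 2.75 and 0.498 reads, whereas *MT2A* had a base mean of 87.0 in ABC1 and 3343 in HCC4006. In bulk RNA, fewer cells that express a gene and less RNA per cell cannot be told apart.

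Between the vehicle libraries, 5 of the 7 members tested were higher in HCC4006 and 1 was lower (limma on log2(FPKM + 1) over 13682 genes, Benjamini-Hochberg adjusted p under 0.05). This comparison called 66.9% of all genes tested, 36.8% higher and 30.2% lower in HCC4006, so a call alone sets no gene apart, but the size did differ from most genes. The difference, HCC4006 minus ABC1, was 5.72 on the log2 scale for *MT2A* (SE 0.17, limma Benjamini-Hochberg adjusted p = 1.58e-07), the 70th highest of the 13682. It was 4.51 for *MT1X* (SE 0.15, limma Benjamini-Hochberg adjusted p = 2.62e-07), the 184th highest, and between 2.55 and 3.44, the 95% confidence interval, for *MT1F* (SE 0.19, limma Benjamini-Hochberg adjusted p = 6.13e-06). *MT1E*, *MT1G* and *MT1F* reached the minimum mean only through HCC4006, so their calls were largely set by that minimum and give no support beyond the levels. Adding 1 FPKM before the log understates the difference of a gene that is near 0 in ABC1. The calls of *MT2A* and *MT1X* and the 1 lower call held under each alternative setting tried and with each library left out. Those of *MT1E*, *MT1F* and *MT1G* held too, which adds no support because of the minimum.

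The exporter and the regulator did not share this pattern. *SLC30A1* was at 13.7 and 10.5 FPKM in ABC1 vehicle and at 6.12 and 6.90 FPKM in HCC4006 vehicle, so it was lower where the metallothioneins were high. Its difference, HCC4006 minus ABC1, was -0.79 on the log2 scale (SE 0.16, limma Benjamini-Hochberg adjusted p = 0.00312). *MTF1* was at 3.55 and 3.60 FPKM in ABC1 vehicle and at 4.39 and 4.74 FPKM in HCC4006 vehicle. The groups did not overlap, but the difference of 0.28 (95% confidence interval -0.02 to 0.58) did not pass the test (limma Benjamini-Hochberg adjusted p = 0.0866), and its interval reached 0.58.

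**Figure D2:**
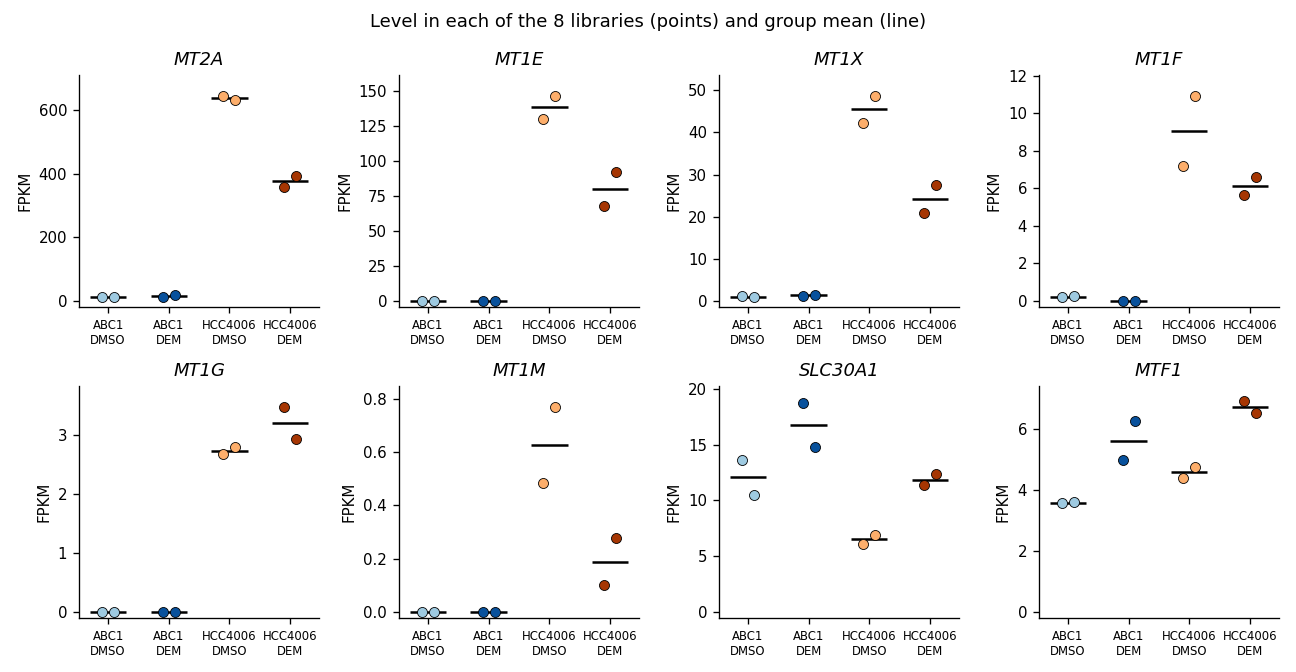
FPKM of each of the 8 genes in each library (points) with the group mean (line), for vehicle (DMSO) and DEM in ABC1 (blue) and HCC4006 (orange and brown); each panel has its own linear axis. *MT2A*, *MT1E* and *MT1X* are high in HCC4006 vehicle and lower with DEM, while *SLC30A1* and *MTF1* are higher with DEM in both lines, with the tests given in the text.

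In HCC4006, DEM lowered the metallothionein transcripts highest in FPKM and raised the exporter and the regulator. *MT2A* was at 646 and 631 FPKM with vehicle and at 357 and 395 FPKM with DEM. *MT1E* was at 131 and 147 FPKM with vehicle and at 68.2 and 92.1 FPKM with DEM. *MT1X* was at 42.2 and 48.7 FPKM with vehicle and at 20.8 and 27.6 FPKM with DEM. For all of these genes both DEM libraries lay below both vehicle libraries, as for 35.3% of all genes tested in HCC4006 (29.3% lay above), and the group means with DEM were 0.589, 0.578 and 0.532 times those with vehicle.

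Of the 7 members tested in HCC4006, 3 fell and 2 rose, where the same test called 10.7% of the 13542 genes lower and 8.45% higher (19.1% in either direction). *MT2A* fell by 0.76 on the log2 scale (SE 0.07, 95% confidence interval -0.94 to -0.59, limma Benjamini-Hochberg adjusted p = 0.00302). *MT1E* fell by 0.80 (SE 0.15, limma Benjamini-Hochberg adjusted p = 0.0192) and *MT1X* by 0.89 (SE 0.15, limma Benjamini-Hochberg adjusted p = 0.0141), sizes whose intervals overlap that of *MT2A*. Without vehicle replicate 1, *MT1E* and *MT1X* no longer passed (limma Benjamini-Hochberg adjusted p = 0.0826 and 0.0679), while *MT2A* passed without any one library (0.0163 to 0.0214). With no minimum on FPKM, which brings silent genes into the test, none of the 5 calls held, and *MT2A* had a limma Benjamini-Hochberg adjusted p of 0.0725.

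The metallothionein members lower in FPKM gave no call, although by base mean *MT1F* (65.4 reads) stood above *MT1X* (59.3 reads), which was called. *MT1F* was at 7.17 and 10.9 FPKM with vehicle and at 5.64 and 6.57 FPKM with DEM. Both of its DEM libraries lay below both vehicle libraries, but the vehicle libraries differed widely from each other and the log2 fold change of -0.48 (95% confidence interval -0.96 to 0.01) did not pass (limma Benjamini-Hochberg adjusted p = 0.140). *MT1G* was at 2.66 and 2.80 FPKM with vehicle and at 3.47 and 2.93 FPKM with DEM, a log2 fold change of 0.17 (95% confidence interval -0.20 to 0.53, limma Benjamini-Hochberg adjusted p = 0.453). Its DEM libraries both lay above the vehicle libraries, and its interval did not reach down to the fall of *MT2A*. *MT1M* was at 0.483 and 0.770 FPKM with vehicle and at 0.101 and 0.275 FPKM with DEM, below the minimum mean of 1 FPKM, and was not tested.

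Because *MT2A* dominated, the summed level of the 6 metallothionein genes followed it. The sum was 829 and 842 FPKM with vehicle and 455 and 524 FPKM with DEM in HCC4006, a mean of 835 ± 8.87 (SD, n = 2) against 490 ± 48.6 (SD, n = 2). *MT2A* made up 77.9% and 75.0% of the sum with vehicle and 78.4% and 75.3% with DEM. The ratio of *MT1E* to *MT2A* was 0.202 and 0.233 with vehicle and 0.191 and 0.233 with DEM, so both of these quantities overlapped between the groups while the summed level did not. With DEM, *MT2A* ranked 210th and 181st among genes by FPKM.

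Across members, the order of levels in the HCC4006 vehicle libraries was *MT2A*, *MT1E*, *MT1X*, *MT1F*, *MT1G* and *MT1M*, and no 2 neighbours in this order overlapped between libraries in FPKM. *MT1X* and *MT1F* stood the other way in the authors' base mean, at 59.3 and 65.4 reads. The order by FPKM was the same with DEM. In ABC1 vehicle it was *MT2A*, *MT1X* and *MT1F*, again without overlap, with *MT1E*, *MT1G* and *MT1M* listed at 0.

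The exporter moved the opposite way from the metallothioneins in HCC4006. *SLC30A1* was at 6.12 and 6.90 FPKM with vehicle and at 11.4 and 12.4 FPKM with DEM. Both DEM libraries lay above both vehicle libraries, and the gene rose by 0.78 on the log2 scale (SE 0.11, 95% confidence interval 0.50 to 1.06, limma Benjamini-Hochberg adjusted p = 0.0105). Its level with DEM reached that of the ABC1 vehicle libraries. Without vehicle replicate 0 or without DEM replicate 1 its call was lost (limma Benjamini-Hochberg adjusted p = 0.0517 and 0.0566), with a log2 fold change of 0.70 and 0.73.

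*MTF1*, the regulator, was at 4.39 and 4.74 FPKM with vehicle and at 6.90 and 6.51 FPKM with DEM in HCC4006. The groups did not overlap and *MTF1* rose by 0.47 on the log2 scale (SE 0.12, 95% confidence interval 0.18 to 0.76, limma Benjamini-Hochberg adjusted p = 0.0447). This call is the weakest of the 5: it was lost without vehicle replicate 0 (0.177), vehicle replicate 1 (0.130), DEM replicate 0 (0.157) or DEM replicate 1 (0.110), each a limma Benjamini-Hochberg adjusted p. Transcript level says nothing of the zinc-bound, nuclear form of the protein, which was not measured.

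In ABC1, no member passed the test, and the 4 that could be tested had positive log2 fold changes. The test called 1.20% of 12635 genes in ABC1 (0.768% higher, 0.435% lower), and 2771 of them had an unadjusted p under 0.05. *MT2A* was at 11.0 and 11.3 FPKM with vehicle and at 13.2 and 20.3 FPKM with DEM, a log2 fold change of 0.52 (95% confidence interval -0.00 to 1.04, limma Benjamini-Hochberg adjusted p = 0.231). DEM replicate 1 carried much of this value, which was 0.22 without it and 0.81 without DEM replicate 0. *MT1X* was at 1.12 and 0.966 FPKM with vehicle and at 1.27 and 1.38 FPKM with DEM, a log2 fold change of 0.19 (95% confidence interval -0.35 to 0.72, limma Benjamini-Hochberg adjusted p = 0.656). *MT1F* was at 0.236 and 0.238 FPKM with vehicle and listed at 0 in both DEM libraries, on a base mean of less than 1 read.

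*SLC30A1* was at 13.7 and 10.5 FPKM with vehicle and at 18.7 and 14.8 FPKM with DEM in ABC1. Its log2 fold change was 0.44 (95% confidence interval -0.02 to 0.90, limma Benjamini-Hochberg adjusted p = 0.241). *MTF1* was at 3.55 and 3.60 FPKM with vehicle and at 4.97 and 6.25 FPKM with DEM, a log2 fold change of 0.52 (95% confidence interval 0.10 to 0.95, limma Benjamini-Hochberg adjusted p = 0.164). For *MT2A*, *MT1X*, *SLC30A1* and *MTF1* both DEM libraries lay above both vehicle libraries, as they did for 25.5% of all genes tested in ABC1, where 28.2% lay below. These values do not show that the genes were stable in ABC1: the intervals allow rises as large as those called in HCC4006, and an exact permutation test of 2 against 2 libraries cannot give a p below 0.333. The summed metallothionein level was 12.4 and 12.5 FPKM with vehicle and 14.5 and 21.6 FPKM with DEM, so that HCC4006 exceeded ABC1 by 67.1 times with vehicle and by 27.1 times with DEM.

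**Figure D3:**
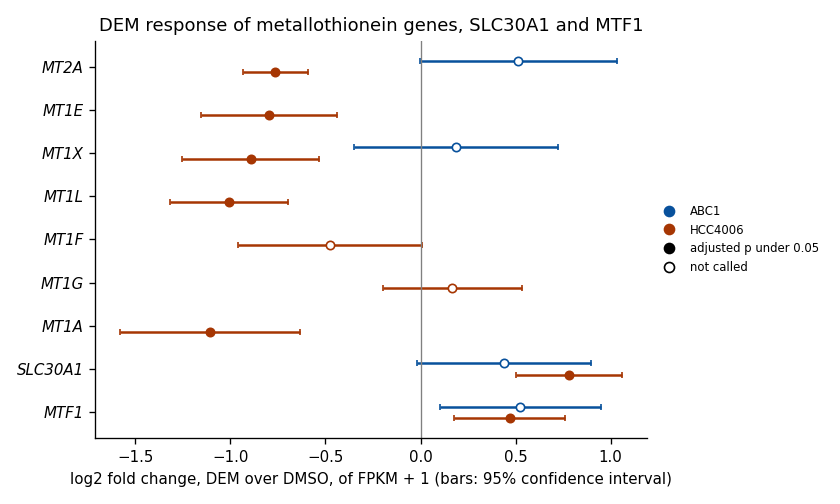
Log2 fold change of FPKM + 1, DEM over DMSO, of the metallothionein genes tested, the pseudogene *MT1L*, *SLC30A1* and *MTF1* in ABC1 (blue) and HCC4006 (brown), with 95% confidence intervals as bars and filled points where the limma adjusted p is under 0.05. In HCC4006 *MT2A*, *MT1E* and *MT1X* lie between -0.89 and -0.76 and *SLC30A1* at 0.78, whereas no ABC1 point is filled.

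Whether the response to DEM differed between the lines was tested directly, as the change in HCC4006 minus the change in ABC1, in a model of all 8 libraries. Of the 4 members that reached the minimum in both lines, *MT2A*, *MT1X*, *SLC30A1* and *MTF1*, 0 passed in limma (0.636% of 13682 genes did, 0.307% higher and 0.329% lower, and 2068 had an unadjusted p under 0.05). The difference for *MT2A* was -1.28 (SE 0.25, 95% confidence interval -1.86 to -0.70, limma Benjamini-Hochberg adjusted p = 0.0765), and that for *MT1X* was -1.08 (SE 0.22, limma Benjamini-Hochberg adjusted p = 0.0843). Without ABC1 DEM replicate 0 the difference for *MT2A* was -1.57 and passed (limma Benjamini-Hochberg adjusted p = 0.0147). *MT1E*, *MT1F* and *MT1G* entered the test through HCC4006 alone and have an ABC1 level of 0.238 FPKM or less. The lines are therefore not shown to differ in their metallothionein response by this test, although *MT2A* was among the 101 lowest values of the 13682. For *SLC30A1* the difference was 0.34 (95% confidence interval -0.19 to 0.87) and for *MTF1* -0.06 (95% confidence interval -0.48 to 0.37), with limma Benjamini-Hochberg adjusted p = 0.560 and 0.926.

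Further genes of the cluster fell in HCC4006. Of 12 other metallothionein genes and pseudogenes sought, 11 were found, and only *MT1L*, a transcribed pseudogene, and *MT1A* reached a mean of 1 FPKM in a line. *MT1L* was at 13.3 and 12.2 FPKM with vehicle and at 5.28 and 6.43 FPKM with DEM in HCC4006, and fell by 1.01 on the log2 scale (SE 0.13, limma Benjamini-Hochberg adjusted p = 0.00703). *MT1A* was at 2.63 and 3.69 FPKM with vehicle and at 0.833 and 1.0 FPKM with DEM, and fell by 1.11 (SE 0.19, limma Benjamini-Hochberg adjusted p = 0.0166), a call lost without vehicle replicate 1, DEM replicate 0 or DEM replicate 1 (0.0567 to 0.0812). Both were listed at 0 in all 4 ABC1 libraries. The test called 10.7% of all genes tested lower in HCC4006. The base mean there was 44.5 reads for *MT1L* and 8.42 for *MT1A*, so the *MT1A* values rest on few reads. The other 9 reached at most 1.52 FPKM in any library, among them *MT3*, the brain-enriched member, and *MT1H*, *MT1B* and *MT4* were at 0 throughout.

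Sequence shared between these paralogs bears on how firmly their values can be read. Of the distinct 80-base stretches of *MT2A*, *MT1F*, *MT1M*, *MT1A* and *SLC30A1* transcripts, 0% occur in transcripts of another gene, and 0.532% of those of *MT1E* and 4.02% of those of *MT1G* do. *MT1X* shares 14.1% of its stretches, with *MT1G*, the pseudogene *MT1XP1* and an overlapping long non-coding RNA gene, so its value is uncertain. *MT1L* shares all of its stretches with a long non-coding RNA gene at the same place in the annotation read here. Whether the annotation used by the authors held that gene was not checked, so how far this bears on the *MT1L* value is not known. *MT1X* (1727 exonic bases) also had only 1.70 scaled reads per FPKM in HCC4006, against 8.63 for *MT1F* (1852 exonic bases). The part of shared sequence in the *MT1X* values was not tested.

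**Figure D4:**
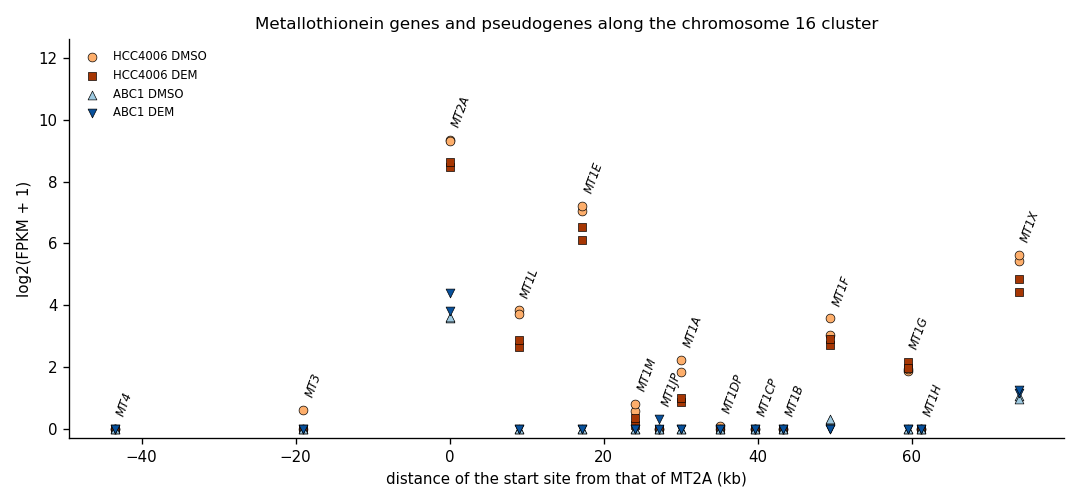
Level, as log2(FPKM + 1), of each metallothionein gene and pseudogene of the chromosome 16 cluster in all 8 libraries, against the distance of its start site from that of *MT2A* in kb. HCC4006 libraries stand high at *MT2A*, at *MT1E* and at *MT1X*, which start 0, 17.2 and 73.9 kb from *MT2A*, with lower levels at the genes between them, and the ABC1 group means stand above 1 FPKM at *MT2A* and *MT1X* alone.

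No other gene of the exporter family passed the test. Of the 9 other *SLC30* genes, a family most of whose products move zinc out of the cytosol, 5 were tested in ABC1 and 4 in HCC4006. In either line 0 were called by limma, with log2 fold changes above 0 for 4 of 5 and 2 of 4 and medians of 0.15 and -0.00. Over all genes tested the medians were -0.02 in ABC1 and -0.03 in HCC4006. Of the 14 *SLC39* genes, whose products bring zinc into the cytosol, 11 were tested in each line, with 1 lower in ABC1 and with 2 lower and 1 higher in HCC4006, and medians of 0.05 and -0.02. These counts stand beside 0.435% of all genes tested called lower in ABC1 and 10.7% lower and 8.45% higher in HCC4006.

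*SLC39A10*, an importer at the plasma membrane, was lower with DEM in both lines. In ABC1 it was at 18.2 and 17.4 FPKM with vehicle and at 8.63 and 8.50 FPKM with DEM, and fell by 0.98 on the log2 scale (SE 0.13, limma Benjamini-Hochberg adjusted p = 0.0422). In HCC4006 it was at 4.59 and 5.49 FPKM with vehicle and at 3.25 and 2.43 FPKM with DEM, and fell by 0.66 (SE 0.17, limma Benjamini-Hochberg adjusted p = 0.0449). The groups did not overlap in either line. Both calls were lost without any one library of the line, with limma Benjamini-Hochberg adjusted p of 0.0782 (DEM replicate 0), 0.0916 (DEM replicate 1), 0.315 (vehicle replicate 0) and 0.262 (vehicle replicate 1) in ABC1 and 0.0737 to 0.186 in HCC4006.

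*SLC39A1*, another importer at the plasma membrane, was at 80.2 and 79.1 FPKM with vehicle and at 54.9 and 54.5 FPKM with DEM in HCC4006, and fell by 0.53 (SE 0.07, limma Benjamini-Hochberg adjusted p = 0.00687; 0.05 without vehicle replicate 1, which ends the call). In ABC1 it was at 140 and 166 FPKM with vehicle and at 109 and 135 FPKM with DEM, both DEM libraries below both vehicle libraries, and was not called (log2 fold change -0.33, limma Benjamini-Hochberg adjusted p = 0.304). *SLC39A13*, a transporter of intracellular membranes, was at 16.3 and 16.1 FPKM with vehicle and at 23.5 and 20.8 FPKM with DEM in HCC4006, and rose by 0.43 (SE 0.10, limma Benjamini-Hochberg adjusted p = 0.0334), a call lost without any one of the 4 libraries (0.0572 to 0.137). Zinc itself was not measured.

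**Figure D5:**
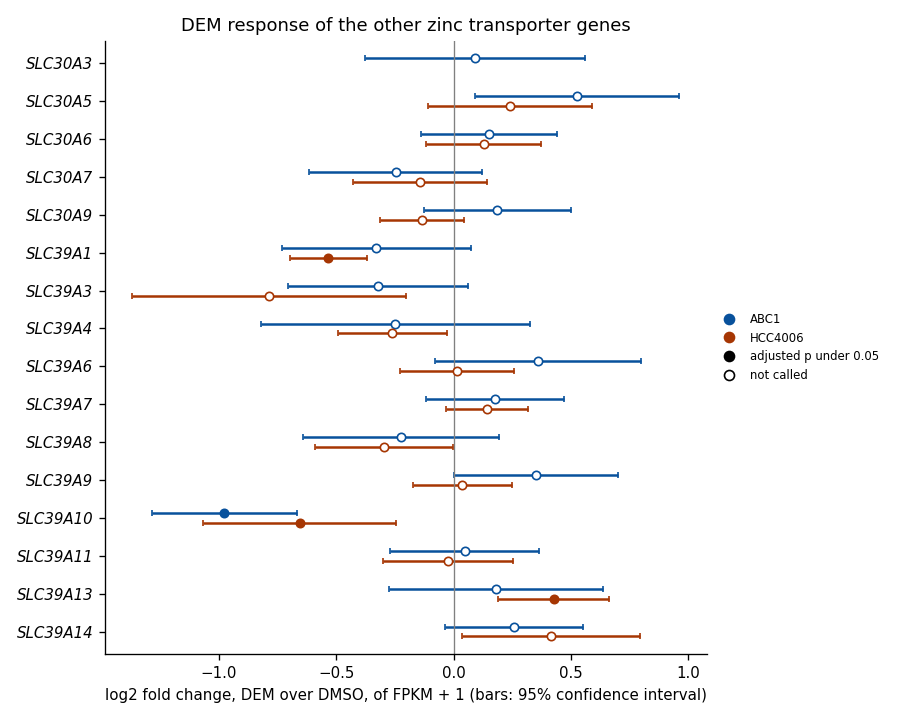
Log2 fold change of FPKM + 1, DEM over DMSO, of the other *SLC30* and *SLC39* genes tested in ABC1 (blue) and HCC4006 (brown), with 95% confidence intervals as bars and filled points where the limma adjusted p is under 0.05. *SLC39A10* is filled in both lines, at -0.98 and -0.66, *SLC39A1* and *SLC39A13* are filled in HCC4006, and no *SLC30* gene is.

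The genes whose level followed the summed metallothioneins most closely over the 8 libraries, by Pearson correlation on the log2 scale over 13675 genes, were *LNCAROD* (r = 0.998), *ZIK1*, *TNFRSF14*, *TMEM255B* and *PLXNB3-AS1*. *LNCAROD* was at 24.7 and 27.1 FPKM in HCC4006 vehicle, at 14.4 and 16.0 FPKM in HCC4006 DEM, and at 0.340 FPKM or less in ABC1. *MTF1* ranked 6128th in likeness, with r = 0.430. For *SLC30A1* the closest genes were *SPSB2* (r = 0.979), *SVIL*, *SLC66A1*, *H2AC6* and *LONRF1*, while *MTF1* had r = 0.218 and *MT2A* r = -0.72. These r describe 8 libraries of only 2 lines, share the difference between the lines, and carry no test.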

How the data were processed

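Total RNA of ABC1 and HCC4006 cells was polyA-selected and made into strand-specific libraries. The study's methods describe TopHat and Cufflinks, whereas the submitters' processing notes name cutadapt 1.15, STAR 2.5.3a, Cuffnorm, HTSeq and DESeq2 with hg19 (GRCh37.p13), and which of these made each column was not settled here. The authors deposited FPKM per gene and library, which were used as they stand, and no read counts per library were analysed here. A table of the authors' own comparison gives, per line, a base mean, the authors' mean signal of scaled read counts, which was the only column used from it. Its other columns hold the authors' fold changes, test statistics and p-values and were not used. Versioned Ensembl identifiers were matched to symbols for 55534 of 57815.

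Tests were run on genes whose mean over the libraries fitted reached 1 FPKM, with limma 3.58.1 (R 4.3.3) on log2(FPKM + 1), with empirical Bayes moderation and a mean-variance trend, within each line (4 libraries) and in a model of all 8 libraries for comparisons of the lines. P-values were adjusted by Benjamini-Hochberg over all genes tested, with a threshold of 0.05, and intervals are at 95%. Because no counts per library were used, no interval for counting error is given, and p-values measure the spread between 2 cultures per group. The procedure was run on simulated data with changes larger than any DEM response of the members. It does not show how changes as small as theirs are handled. The 8 genes were always named. Of other metallothioneins those whose mean reached 1 FPKM in a line were named, of other lists those called, up to 6 per list, and 5 genes were named per likeness pattern. Members and lists were chosen with earlier results of these data known. Alternatives were a pseudocount of 0.1, no minimum FPKM, median-of-ratios scaling, no variance trend, a shared model of all 8 libraries, a replicate block and leaving out each library. Promoter windows and positions were read from the GRCh37 genome and the GENCODE annotation lifted to it. One promoter window is not reported here.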

Additional observations from a re-analysis of the deposited data

How the results depend on the processing

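No result of the 8 genes changed direction while called under any alternative, and 274 of their 292 values in 4 comparisons kept their side of the threshold. The 292 include values of results that were not called at the main setting. Of the rest, 3 gained a call and 15 lost one, and all 15 were DEM responses in HCC4006. There *MTF1* lost its call in 7 of 10 alternatives and *SLC30A1* in 3 of 10. *MT1E* and *MT1X* lost theirs in 2 of 10 each, and *MT2A* in 1 of 10. With no minimum FPKM, the members called in HCC4006 went from 2 higher and 3 lower to 0 and 0, and all calls went from 97 higher and 55 lower to 0 and 0 in ABC1 and from 1144 and 1447 to 177 and 193 in HCC4006. In one model of all 8 libraries 1 member was higher in ABC1 (*MTF1*, limma Benjamini-Hochberg adjusted p = 0.0437) and 1 in HCC4006, since *MTF1* did not pass there (0.0597), and the calls over all genes were 738 and 756 in ABC1 and 706 and 847 in HCC4006. Leaving out 1 library gave 0 to 1 higher and 1 to 3 lower members in HCC4006, and 0 to 1 members with a lower response difference, the 1 being *MT2A* without ABC1 DEM replicate 0. Over all genes, leaving out 1 library left 10 to 51 higher and 8 to 18 lower calls in ABC1, 290 to 464 and 344 to 564 in HCC4006, and 0 to 17 and 2 to 27 for the response difference. In ABC1 the calls over all genes were 158 and 93 with median-of-ratios scaling and 27 and 6 without a variance trend. Calls of the response difference (42 higher, 45 lower) became 11 and 9 with a pseudocount of 0.1 and 173 and 230 with no minimum. The cause of these shifts was not tested.

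Replicates carry the numbers 0 and 1 in every group, but no label ties a number to a shared batch, so the fits have no block. Across genes, the deviations of same-numbered libraries from their group means correlated at 0.258 in ABC1, 0.0544 in HCC4006 and 0.0353 between the vehicle libraries of the lines. Whether same-numbered libraries of ABC1 share an effect was not tested. With a replicate block 1 member was higher in ABC1 (*SLC30A1*, limma Benjamini-Hochberg adjusted p = 0.0380) and 1 was higher in HCC4006, where *MTF1* was at 0.0508, calls over all genes in ABC1 were 1185 and 1163, and those of the response difference were 5 and 8.

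Depth limits the genes at low level: *MT1X* and *MT1F* in ABC1 had base means of 2.75 and 0.498 reads. In HCC4006 *MT1M*, *MT1A* and *MT1G* had base means of 4.19, 8.42 and 11.7 reads.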

Other observations

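Gene groups that border on the zinc response gave these values. Of 8 copper-handling genes, all tested in both lines, 0 were called in ABC1 by limma and 2 were higher in HCC4006, where 8.45% of all genes tested were (0.768% in ABC1). *ATP7A*, the copper exporter, was at 5.19 and 4.90 FPKM with vehicle and at 7.33 and 7.78 FPKM with DEM (log2 fold change 0.50, SE 0.11, limma Benjamini-Hochberg adjusted p = 0.0341), a call lost without any one library (0.102 to 0.147). *SOD1*, the cytosolic copper-zinc superoxide dismutase, was at 327 and 314 FPKM with vehicle and at 434 and 423 FPKM with DEM (log2 fold change 0.42, SE 0.06, limma Benjamini-Hochberg adjusted p = 0.00986), a call lost without vehicle replicate 1 (0.0725) or DEM replicate 0 (0.0528). In ABC1 *SOD1* was at 188 and 244 FPKM with vehicle and at 285 and 345 FPKM with DEM, and did not pass (log2 fold change 0.55, limma Benjamini-Hochberg adjusted p = 0.169). With a replicate block *SOD1* passed in ABC1 (limma Benjamini-Hochberg adjusted p = 0.00634). Its response difference between the lines was not called (limma Benjamini-Hochberg adjusted p = 0.839).

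Of 7 heat shock genes, whose products refold damaged proteins, 6 rose in HCC4006, *HSPA6* by 0.83 and *BAG3* by 0.75 on the log2 scale among them, beside 8.45% of all genes tested, and none of the 6 tested in ABC1 passed in limma, where their median log2 fold change was 0.86. Of the 6, *BAG3* passed without any one HCC4006 library (limma Benjamini-Hochberg adjusted p = 0.0175 to 0.0331). The calls of *HSPA6* (0.0549 to 0.0613) and *DNAJB1* (0.0839 to 0.162) were lost without any one library, *HSPA1B* was lost without vehicle replicate 1, DEM replicate 0 or DEM replicate 1 (0.0543 to 0.0601), *HSPA1A* without vehicle replicate 1 or DEM replicate 0 (0.0576 and 0.0579), and *HSPH1* without vehicle replicate 0, vehicle replicate 1 or DEM replicate 1 (0.0504 to 0.0660). *BAG3* was at 32.6 and 38.7 FPKM with vehicle and at 59.7 and 73.8 FPKM with DEM in ABC1 (limma Benjamini-Hochberg adjusted p = 0.0671). There *BAG3*, *DNAJB1* and *HSPH1* passed with median-of-ratios scaling, in the model of all 8 libraries and with a replicate block. *HSPA1B* passed there in the model of all 8 libraries and with the block, and *HSPA1A* with the block alone. In HCC4006 the median log2 fold change of the 7 heat shock genes was 0.69. Of their response differences between the lines, 0 were called. Metallothionein genes also answer to glucocorticoids, and of 7 glucocorticoid-responsive genes 6 were tested in HCC4006. Of these, 1 was called higher and 1 lower, beside 8.45% and 10.7% of all genes tested there, and 4 were not called. *DUSP1*, a phosphatase of MAP kinases, rose by 0.87 there (limma Benjamini-Hochberg adjusted p = 0.00451) and *TSC22D3*, which encodes GILZ, fell by 0.41 (limma Benjamini-Hochberg adjusted p = 0.0250), a call lost without any one library (0.0586 to 0.116) and in the model of all 8 libraries (0.116). *TSC22D3* was at 32.1 and 31.9 FPKM with vehicle and at 24.8 and 22.8 FPKM with DEM in HCC4006, and at 0.253 FPKM or less in ABC1. None of the 4 glucocorticoid-responsive genes tested in ABC1 was called, where 1.20% of all genes tested were.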
